A study of Mus musculus with 12 samples.

Results

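Myelin and mature oligodendrocyte genes were followed as a group of 34 genes in chromatin accessibility data from forebrain of wild-type mice (WT) and of mice labelled as Sgsh knockouts (SgshKO). Sgsh encodes a lysosomal sulfatase needed to break down heparan sulfate. The members were taken by name: every ATAC-seq peak whose nearest gene is a member was kept, first in Olig2+ nuclei, then in NeuN+ nuclei and microglia. This gave 959 of 82577 peaks in Olig2+ nuclei, 230 of 107627 in NeuN+ nuclei and 153 of 91770 in microglia, or 1342 of 281974 peaks in all. Nearest-gene assignment does not show that a peak acts on that gene. All 34 genes had a peak in Olig2+ nuclei, and 30 and 27 had a peak in NeuN+ nuclei and microglia. In the 3 tables, 33, 19 and 17 members had a peak within 1000 bp of an annotated transcription start site, called a start-site peak here, and all other peaks were called distal.

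Oligodendrocytes wrap axons in myelin, a stack of membrane held compact by proteins such as MBP and rich in galactolipids. Mature oligodendrocytes arise from precursor cells, and the transcription factor MYRF, acting with SOX10, switches on the myelin genes through enhancers that lie within and around them. Open chromatin at these enhancers and start sites is what ATAC-seq reads in oligodendrocyte nuclei, as places where a transposase can insert sequencing adapters.

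The libraries came from C57BL/6 mice aged 4 months, with 2 WT and 2 SgshKO libraries in each of 3 sorts, 12 libraries in 6 groups. Microglia were live cells sorted as CD11b+, CD45 low and CX3CR1+. The nuclei were lightly fixed and sorted as PU.1-, OLIG2- and NEUN+ (NeuN+) or as PU.1-, OLIG2+ and NEUN- (Olig2+). The labels do not give the kind of Sgsh allele, nor say that replicates are separate animals, so the p-values measure the spread between these libraries, which may be technical. A pair of sequencing instruments is named in the labels, with no link to single libraries, so no values within an instrument could be given. An OLIG2 sort holds the whole lineage, precursors included, and is not a sort of myelinating cells.

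Library totals were 15044194 to 19555924 tags in Olig2+ nuclei, 14326703 to 17706971 in NeuN+ nuclei and 10771659 to 11804222 in microglia. Values are tags per peak scaled to 10000000 tags per library. In Olig2+ nuclei the share of tags in peaks was 30.9% to 31.8% in all 4 libraries. The sort label was checked on start-site peaks. In WT Olig2+ libraries the members' start-site peaks summed to 8512 and 8452 tags, against 1016 and 947 in NeuN+ nuclei. In WT microglia they summed to 1901 and 1667 tags, with a start-site peak at 17 of the 34 genes. Of the 8 microglia markers, 7 had no start-site peak in the Olig2+ table, among them Cx3cr1, P2ry12 and Tmem119, and 1 had a peak. Of the 10 neuron markers, 4 had a start-site peak in the Olig2+ table, with summed tags of 160 and 170 in WT. Rbfox3, which encodes NeuN, was among those without one. Start-site peaks were found for 10 of 10 neuron markers in NeuN+ nuclei and for 7 of 8 microglia markers in microglia.

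In Olig2+ nuclei many distal member peaks were lower in SgshKO, and a few genes held most of them. Of the 959 member peaks 238 passed the test, beside 19.8% of the table. In SgshKO 31 of them were higher, beside 8.17%, and 207 lower, beside 11.7%. Of the 874 distal member peaks, 224 were called (limma, Benjamini-Hochberg adjusted p under 0.05 over the whole table), beside 19.7% of all distal peaks. They were 197 lower and 27 higher peaks. The lower calls were 22.5% of the distal member peaks, beside 13.0% of all 62442 distal peaks. The higher calls were 3.09%, beside 6.69%. The median log2 change was -0.27 over distal member peaks and -0.13 over all distal peaks. In 424 of the 874 distal peaks both SgshKO libraries lay below both WT libraries, and in 143 both lay above. That pattern was seen in 37.7% (below) and 23.7% (above) of all distal peaks. Among distal peaks at or above the median signal of the table, 31.0% of the members' 455 were called lower, beside 16.8% of all 26476.

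The genes that carried this were Mobp, with 52 of 76 distal peaks lower, and Mbp, with 46 of 120. Together they held 98 of the 197 lower calls. Nfasc had 21 of 91, Cldn11 13 of 48 and Mal 12 of 30 distal peaks lower. Without Mbp and Mobp, 99 of 678 distal peaks (14.6%) were lower. Without these 5 genes it was 53 of 509 (10.4%), which is below the 13.0% of all distal peaks. Both groupings were chosen after the values were seen and carry no test. Of the 34 genes, 13 had lower calls only, 14 had calls in both directions and 5 had none (Tmem88b, Gjb1, Lpar1, Klk6 with 1 peak, and St18). Opalin and Enpp2 had higher calls only.

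**Figure D1:**
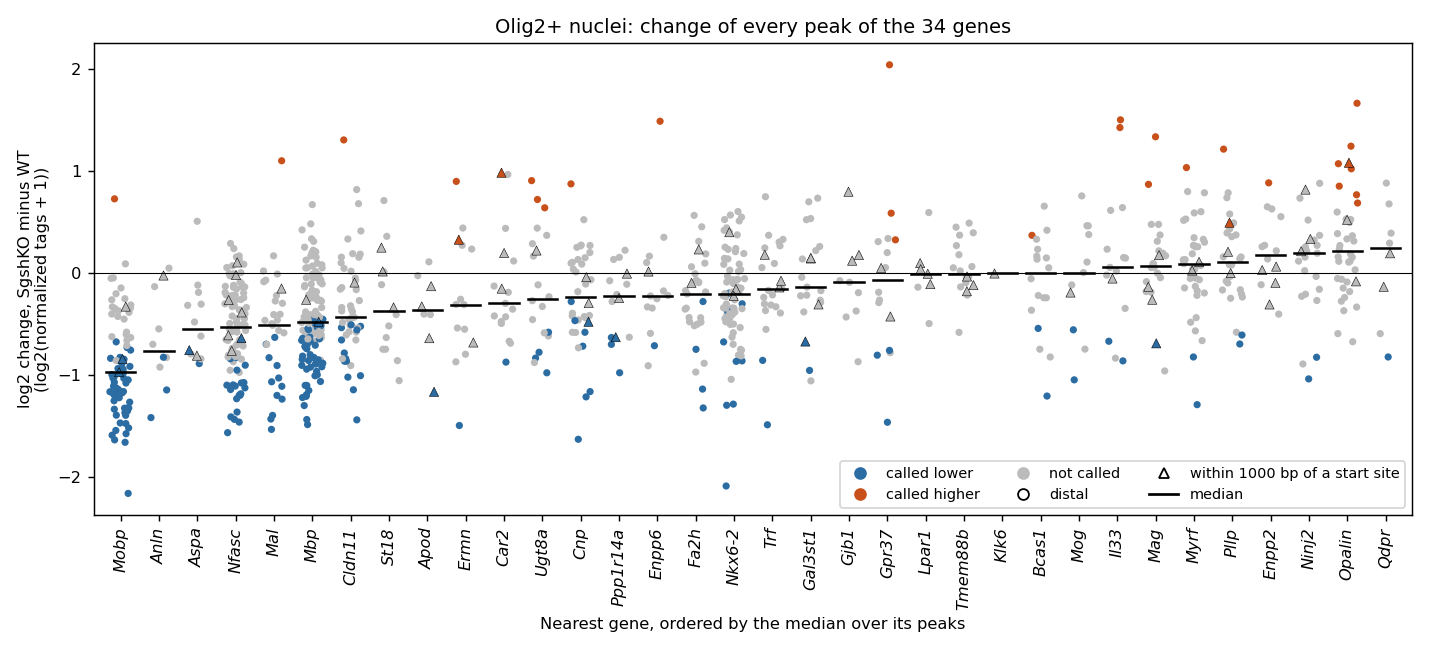
Log2 change (SgshKO minus WT, vertical axis) of each of the 959 Olig2+ peaks, by nearest gene along the horizontal axis and ordered by the gene's median. Circles are distal peaks, triangles start-site peaks, blue called lower, orange called higher, grey not called, and the black bar is the median. Mobp sits lowest, with a median of -0.97, and Opalin (0.21) and Qdpr (0.24) lie at the upper end.

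The tags of all distal peaks of a gene were also summed. Of the 31 members with at least 5 distal peaks, 15 had both SgshKO sums below both WT sums, 7 had both above and 9 overlapped. Over all 3482 such genes, 48.3% lay below and 28.1% above, so the members' number of genes was near the background. The median change of the sum was -7.06% for members and -5.30% for all. The larger falls were at a few genes. Mobp changed by -48.0%, Anln by -47.4%, Mbp by -31.2%, Nfasc by -30.3% and Cldn11 by -25.1%. Of all such genes, 1.61% fell further than Mobp, 1.69% further than Anln, 9.10% further than Mbp, 9.79% further than Nfasc and 15.9% further than Cldn11.

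**Figure D2:**
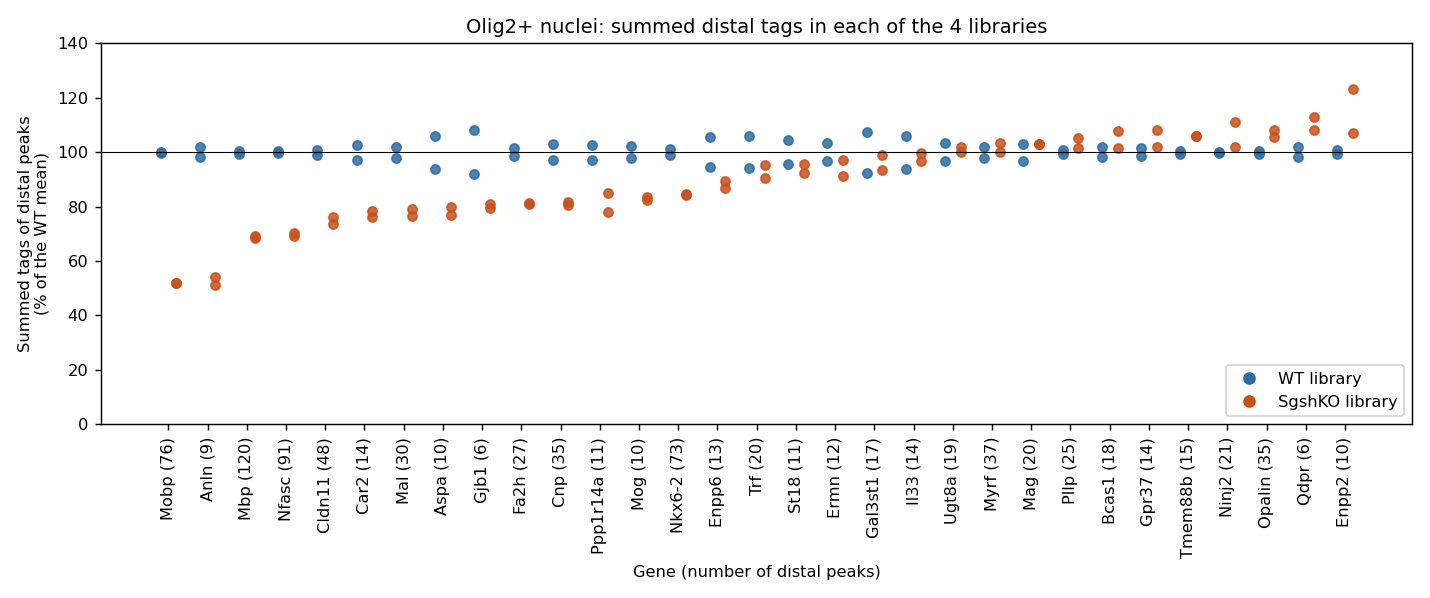
Summed tags of all distal Olig2+ peaks of each member with at least 5 of them, in each of the 4 libraries, as a percentage of the gene's WT mean. Blue points are WT and orange points SgshKO libraries, and the number of peaks stands beside each name. For Mobp the SgshKO sums are 1421 and 1419 tags and the WT sums 2724 and 2735. Opalin, Qdpr and Enpp2 lie above 100%.

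Start-site tags of marker lists of other cell types were summed in the same libraries. Summed start-site tags of a list of 10 precursor (OPC) markers, 9 of which had a start-site peak, were 387 and 387 in WT, against 503 and 516 in SgshKO Olig2+ libraries. Their SgshKO sums lay above both WT sums. Of the 16 start-site peaks of this list 4 were called higher and 1 lower, beside 12.7% and 7.56% of all start-site peaks. The lower one was at Pdgfra. The members' own start-site sums were lower in SgshKO, at 8512 and 8452 in WT, against 7731 and 7903 in SgshKO. The neuron list (4 of 10 genes with a peak) gave 160 and 170 in WT, against 169 and 159 in SgshKO. The astrocyte list (2 of 8 genes) gave 20.8 and 25.6 in WT, against 26.4 and 27.3 in SgshKO libraries. For the endothelial list (1 of 7 genes) the sums were 3.63 and 2.56 in WT, against 8.61 and 10.6 in SgshKO, and the pericyte list had 0 peaks. The part of these lists in the members' result was not tested. In sorted bulk nuclei, fewer cells of a type and less signal per cell cannot be told apart.

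Mobp encodes a small basic protein of central myelin. Its strongest distal peak, at -5072 bp (chromosome 9, 120144564 to 120144777, intergenic), had 251 and 273 tags in WT, against 144 and 150 in SgshKO. The groups did not overlap, and the log2 change was -0.83 ± 0.09 (standard error; limma adjusted p = 1.86e-07). The peak at 24850 bp, in the 3′ UTR, had 113 and 92.6 tags in WT and 49.2 and 49.9 in SgshKO (log2 change -1.03 ± 0.15; limma adjusted p = 1.02e-05). Of the 47 distal peaks inside the gene, 36 were lower, and of the 29 between genes, 16 were. Not every Mobp peak was called: that at 3198 bp had 73.7 and 71.1 tags in WT and 61.5 and 59.8 in SgshKO (limma adjusted p = 0.235). A single Mobp peak was called higher.

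Mbp encodes myelin basic protein, which binds the inner faces of the myelin membrane together. It lies on chromosome 18 and has start sites far apart: an upstream one that makes the golli transcripts found in neurons and immune cells, and a downstream one that makes the myelin proteins. At the myelin start site, the peak at -81 bp (82554226 to 82554538) had 532 and 543 tags in WT, against 370 and 402 in SgshKO. The SgshKO values lay below both WT values, with a log2 change of -0.48 ± 0.06 (limma adjusted p = 3.82e-06). This peak is outside the rule for named peaks nearest the start and was picked after its values were seen. The golli start-site peak at -1 bp had only 11.4 and 9.72 tags in WT and 8.61 and 8.64 in SgshKO Olig2+ nuclei, and was not called.

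Distal Mbp peaks were lower on both sides of the myelin start site. The strongest, at -16168 bp in an intron of the golli transcript (82538190 to 82538401), had 422 and 426 tags in WT and 296 and 266 in SgshKO. Its log2 change was -0.60 ± 0.07 (limma adjusted p = 8.69e-07). The peak at -12847 bp before the golli start (82462145 to 82462408, intergenic) had 72.1 and 68.5 tags in WT and 25.8 and 23.3 in SgshKO, a log2 change of -1.48 ± 0.18 (limma adjusted p = 7.43e-07). Neither peak's groups overlapped. Behind the myelin start site, the peak at 2797 bp had 215 and 199 tags in WT and 136 and 132 in SgshKO (-0.63 ± 0.10; limma adjusted p = 4.51e-05). Inside the gene 38 of 106 distal peaks were lower, and between genes 8 of 14 were. None of the 120 distal Mbp peaks was called higher.

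**Figure D3:**
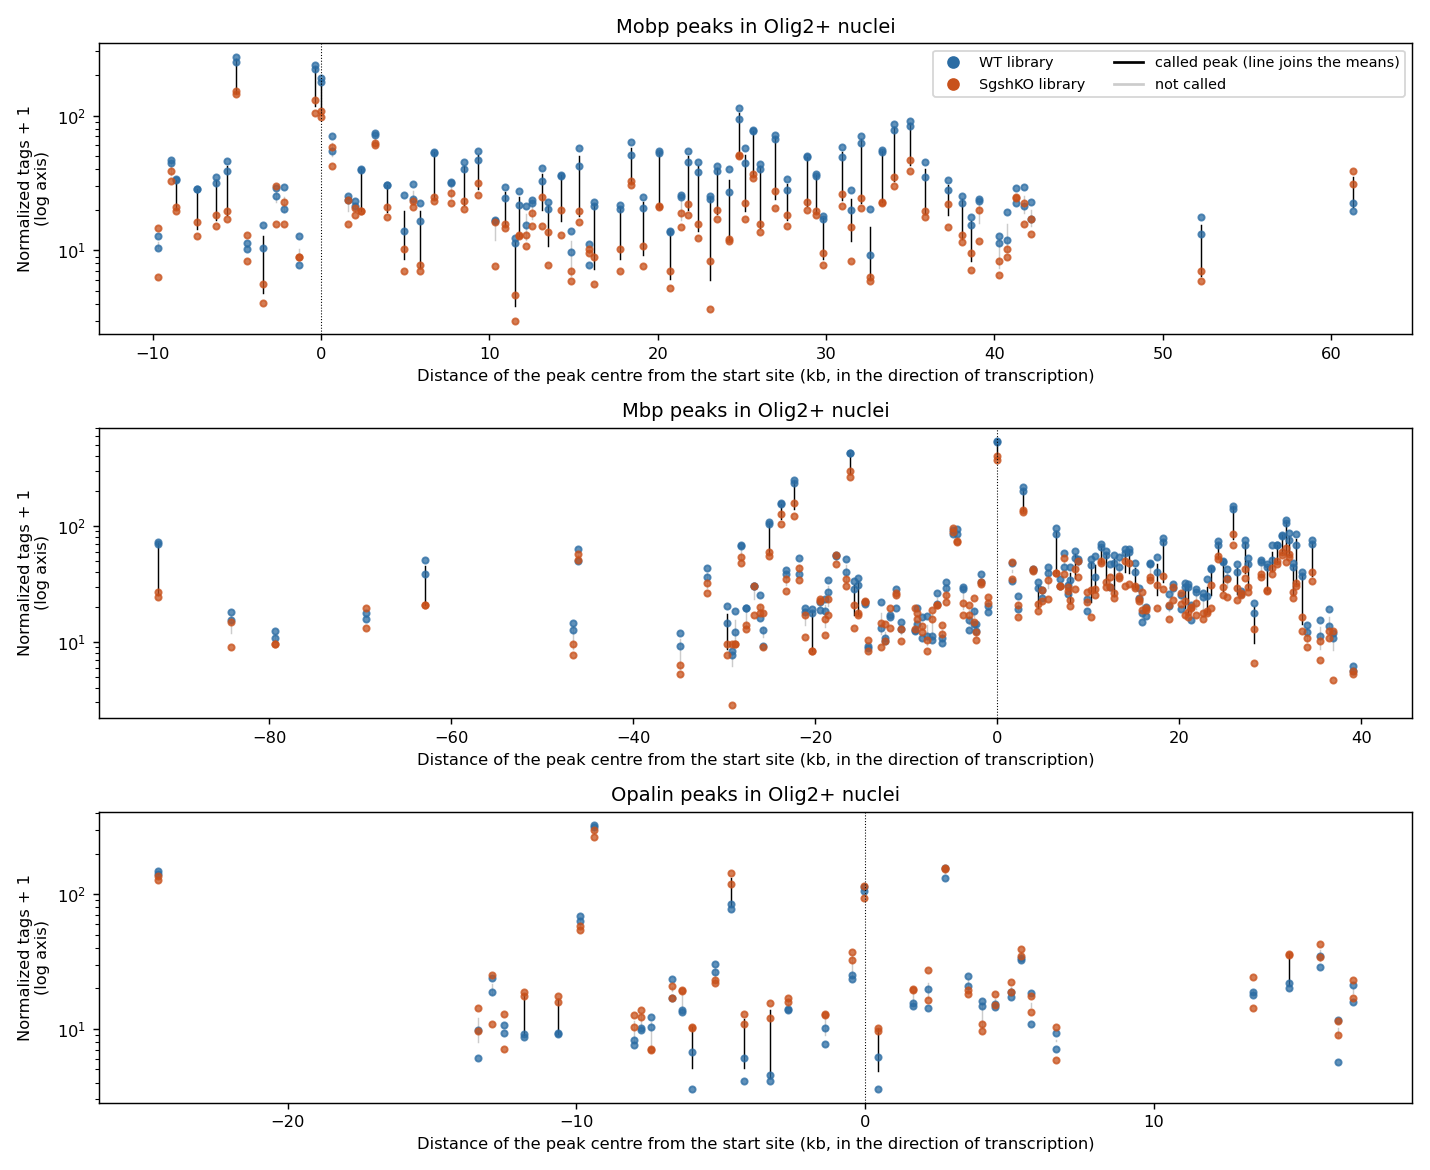
Normalized tags + 1 (log axis) of every Olig2+ peak of Mobp, Mbp and Opalin in each library, against the distance in kb from the start site in the direction of transcription. For Mbp the zero is the myelin start site. Lines join the WT and SgshKO means and are black where the peak was called. At the called peaks SgshKO points (orange) lie below WT points (blue) along Mbp and, but for 1 of 55, along Mobp, and above them at Opalin.

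Over all 12 structural and adhesion genes, 150 of 497 distal peaks were lower (30.2%) and 13 higher, beside 13.0% and 6.69% of all distal peaks. Mobp and Mbp held 98 of these lower calls. Beyond Mobp and Mbp they split. Nfasc encodes neurofascin, whose glial form anchors the myelin loops beside the node of Ranvier. Its distal sums were 1412 and 1401 in WT, against 973 and 988 in SgshKO. Cldn11 encodes the tight-junction claudin of myelin. Its leading peak at 79566 bp, in an intron of Slc7a14 (chromosome 3, 31229379 to 31229593), had 188 and 195 tags in WT and 97.1 and 91.1 in SgshKO, a log2 change of -1.02 ± 0.11 (limma adjusted p = 7.41e-08). The strongest Cldn11 peak, at 16654 bp, was not called, with 389 and 387 tags in WT and 328 and 368 in SgshKO. Mal encodes a proteolipid of myelin rafts. At Mal the strongest peak, at 29086 bp, was likewise not called (414 and 403 in WT, 380 and 390 in SgshKO), while the peak 28574 bp from the start beside it fell from 151 and 133 to 95.9 and 87.1 tags (limma adjusted p = 0.000429).

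Opalin, a membrane protein of the mature oligodendrocyte, had higher calls only. Of its 35 distal peaks 7 were higher and none lower, and its distal sums were 1160 and 1174 in WT, against 1260 and 1232 in SgshKO. This was a change of 6.84%, and 72.0% of all genes with at least 5 distal peaks had a lower value. Both SgshKO sums lay above WT in 28.1% of those genes. Several of the 7 peaks were weak in WT, such as that at -3277 bp with 3.11 and 3.58 tags. Of the 35 distal peaks 17 lie inside the neighbouring gene Tll2 in the RefSeq gene table, 5 of the 7 called ones among them. The peak at -4631 bp (chromosome 19, 41081624 to 41081864), which is in Tll2 by that table and intergenic by the deposited annotation, had 83.5 and 76.7 tags in WT, against 141 and 118 in SgshKO. The groups did not overlap (log2 change 0.69 ± 0.13; limma adjusted p = 0.000319), and it was called higher in all 14 settings. Its strongest distal peak, at -9386 bp, was not called, at 325 and 315 in WT and 299 and 266 in SgshKO. Mag, the adhesion protein that faces the axon, had 2 of 20 distal peaks higher and none lower. Mog, on the outermost sheath, had 2 of 10 lower, Pllp 1 higher and 2 lower of 25, and Ninj2 2 of 21 lower.

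Genes of myelin lipid and acetate metabolism had calls in both directions. Of their 96 distal peaks 5 were higher (beside 6.69% of all distal peaks) and 11 lower (11.5%, beside 13.0%), with a median log2 change of -0.21. Ugt8a makes galactosylceramide, the main galactolipid of myelin, and its calls went both ways, 3 higher and 4 lower of 19. All 4 lower peaks lay inside the gene. The Ugt8a peak at -30974 bp (chromosome 3, 125969466 to 125969787) had 39.9 and 53.7 tags in WT and 91.6 and 83.8 in SgshKO (log2 change 0.90 ± 0.16; limma adjusted p = 0.000173). Fa2h, the fatty acid hydroxylase of myelin lipids, had 4 of 27 lower. Gal3st1, which sulfates galactosylceramide, and Aspa, which frees acetate from N-acetylaspartate, had 1 distal peak lower each. Enpp6, a choline phosphodiesterase seen in newly forming oligodendrocytes, had 1 higher and 1 lower of 13, and Enpp2, which makes lysophosphatidic acid, had 1 of 10 higher.

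Near the transcription factor genes, 11 of 121 distal peaks were lower (9.09%) and 1 higher, beside 13.0% and 6.69% of all distal peaks. Myrf, the regulator of myelin genes, had 1 distal peak higher and 2 lower of 37. Its strongest distal peak, at 7980 bp, had 301 and 323 tags in WT and 292 and 262 in SgshKO and was not called. Nkx6-2, a homeodomain factor of the mature cell, had 9 of 73 distal peaks lower, but 59 of its distal peaks lie inside the neighbouring gene Inpp5a. The Nkx6-2 peak with the smallest p, at -33237 bp in an intron of Cfap46 (chromosome 7, 139615923 to 139616145), had 172 and 185 tags in WT and 108 and 115 in SgshKO (log2 change -0.67 ± 0.11; limma adjusted p = 4.53e-05). St18 had none of 11 called.

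Among cytoskeletal genes, 16 of 85 distal peaks were lower (18.8%) and 3 higher, beside 13.0% and 6.69% of all distal peaks. Anln encodes anillin, a scaffold of septins in myelin, and 3 of its 9 distal peaks were lower. At 21039 bp, in an intron (chromosome 9, 22368035 to 22368300), it had 101 and 122 tags in WT and 48.6 and 34.6 in SgshKO, a log2 change of -1.41 ± 0.16 (limma adjusted p = 2.56e-07). The Anln start-site peak was not called and its groups overlapped, at 150 and 145 in WT and 133 and 159 in SgshKO. Cnp, whose product keeps cytoplasmic channels open in myelin, had 7 of 35 distal peaks lower. Ppp1r14a, a phosphatase inhibitor, had 3 of 11 lower, led by the peak at 4556 bp, which had 202 and 198 tags in WT, against 130 and 116 in SgshKO. The exonic Bcas1 peak at 21215 bp had 202 and 219 tags in WT and 284 and 261 in SgshKO (log2 change 0.37 ± 0.09; limma adjusted p = 0.00321), although the gene also had 2 lower peaks.

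Receptors and secreted factors had distal calls in both directions, and the other enzymes had lower ones only. Of 55 distal peaks in the receptor and signalling group, 5 were higher and 7 lower (12.7%). Of all distal peaks 6.69% were higher and 13.0% lower. The largest log2 rise among called member peaks of Olig2+ nuclei was at 143709 bp from Gpr37, a receptor enriched in oligodendrocytes, with 4.15 and 5.62 tags in WT and 18.4 and 28.6 in SgshKO (log2 change 2.04 ± 0.32; limma adjusted p = 3.27e-05). Gpr37 also had 3 distal peaks lower. Il33, a nuclear cytokine, had 2 higher and 2 lower of 14, and Trf, the iron carrier transferrin, had 2 of 20 lower. Of the 10 higher peaks named by the rule, those of Gpr37 at 143709 bp, Opalin at -3277 bp, Enpp6 at -7165 bp, Mag at 2623 bp and Il33 at 7431 bp had fewer than 6 tags in each WT library. Car2, a carbonic anhydrase, and Qdpr, which recycles tetrahydrobiopterin, had 1 distal peak lower each.

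These distal counts depended on the libraries and the method, and the cause was not tested. With 1 WT library left out, the spread came from the SgshKO libraries alone. Without WT replicate 1, 95 distal member peaks were called in place of 224, and 95 also without WT replicate 2. DESeq2 called 57. Every one of the 197 lower peaks kept a negative change in these 3 fits. They were chosen as lower in these same libraries, so the kept sign is no separate support. The share of member distal peaks called lower stayed above that of all distal peaks in these 3 fits (5.95% and 1.89% with DESeq2).

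Start-site peaks were counted apart from the distal ones. Of 85 start-site member peaks in Olig2+ nuclei, 10 were lower and 4 higher, beside 7.56% lower, 12.7% higher and 20.3% in either direction over all 20120 start-site peaks. Both SgshKO libraries lay below WT in 29 of the 85 and above it in 17, beside 26.2% and 34.7%. The median log2 change was -0.08, and 0.05 over all start-site peaks. The split depended on the scaling, at 9 higher and 7 lower with median-of-ratios factors and 12 higher and 7 lower with edgeR. Only 5 start-site peaks were called without WT replicate 1 and 6 without WT replicate 2. Those of Mobp at -365 and -18 bp, Cnp at -178 bp, Mbp at -81 bp and Nfasc at -168 bp were called lower in all 14 settings, the one reported included.

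At Mobp the peak at -365 bp (chromosome 9, 120149272 to 120149482) had 236 and 219 tags in WT and 129 and 104 in SgshKO, a log2 change of -0.97 ± 0.11 (limma adjusted p = 1.5e-07). The peak at -18 bp had 188 and 177 in WT and 95.9 and 107 in SgshKO (-0.84 ± 0.11; limma adjusted p = 2.38e-06). The Cnp peak at -178 bp of another transcript (chromosome 11, 100575603 to 100575824) had 656 and 677 tags in WT, against 479 and 478 in SgshKO. The groups of all 3 peaks stood apart, and the Cnp log2 change was -0.48 ± 0.06 (limma adjusted p = 4.96e-07). Nfasc has several start sites, and only the peak at -168 bp from one of them was called. At -168 bp (chromosome 1, 132707360 to 132707628) it had 190 and 196 tags in WT and 116 and 132 in SgshKO, and at -10 bp from the other (132741692 to 132741923) it had 91.3 and 100 in WT, against 96.5 and 92.4 in SgshKO, where the groups overlapped. The difference between these start sites was not tested. The lower calls at Aspa (-68 bp), Gal3st1 (-625 bp), Mag (-121 bp), Apod (-301 bp) and Ppp1r14a (786 bp) were weak. Their adjusted p ranged from 0.0295 to 0.0492 (limma), and each was called in 5 to 9 settings.

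Start-site peaks that rose were those of Pllp, a plasmolipin of myelin, and Ermn, an actin-binding protein of the outer sheath, besides weak peaks of Car2 and Opalin. Pllp at -46 bp had 61.7 and 62.9 tags in WT and 88.5 and 87.7 in SgshKO (log2 change 0.49 ± 0.14; limma adjusted p = 0.0138). Ermn at -219 bp had 156 and 175 in WT and 210 and 205 in SgshKO (0.33 ± 0.10; limma adjusted p = 0.0169). Neither pair of groups overlapped, but Pllp was no longer called without WT replicate 1 (limma adjusted p = 0.109) or 2 (0.0910), nor Ermn without WT replicate 1 (0.226). DESeq2 called neither.

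Most strong start sites were not called. Qdpr had 789 and 838 tags in WT and 765 and 719 in SgshKO. Gal3st1 at -106 bp had 529 and 495 in WT and 574 and 557 in SgshKO, and Gpr37 532 and 485 in WT and 519 and 533 in SgshKO. Among the structural genes, Mag at -27 bp had 248 and 253 in WT and 263 and 304 in SgshKO. Mog (285 and 283 in WT, 240 and 259 in SgshKO), Cldn11 (196 and 172 in WT, 170 and 176 in SgshKO) and Mal (167 and 179 in WT, 169 and 145 in SgshKO) were not called either, and Myrf at -24 bp had 191 and 192 in WT and 190 and 201 in SgshKO.

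**Figure D4:**
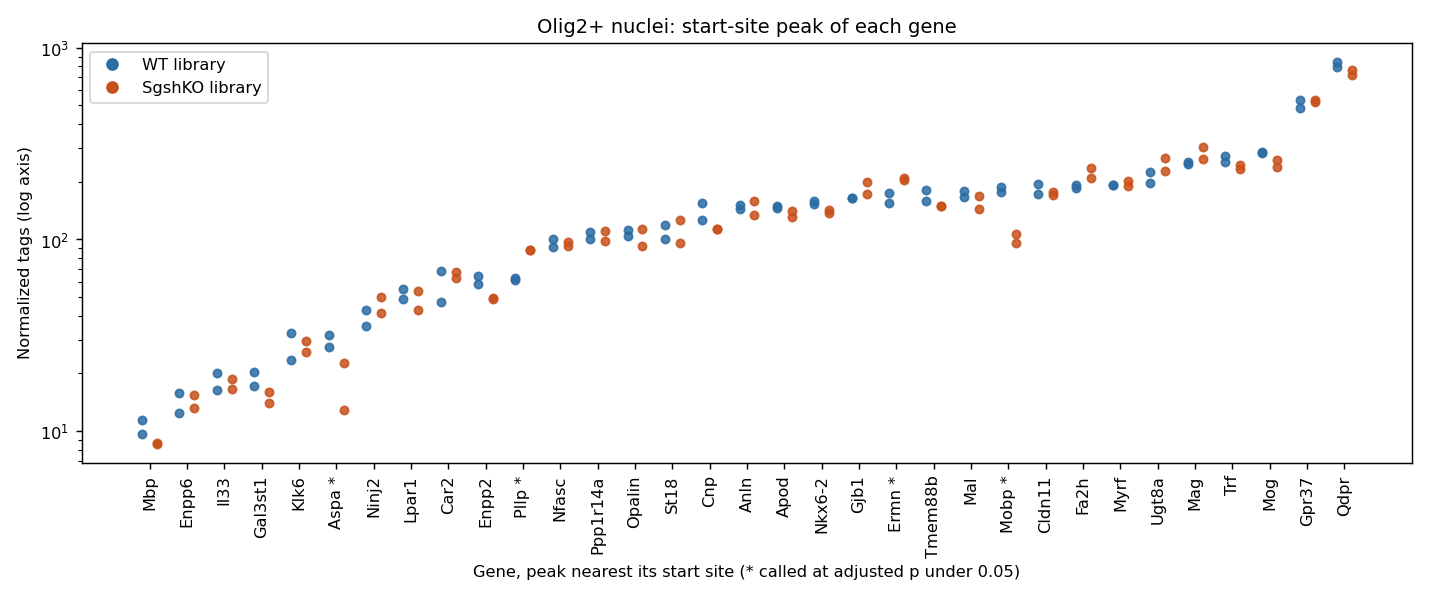
Normalized tags (log axis) in each Olig2+ library at the peak nearest the start site of 33 members, ordered by the WT mean, with WT in blue, SgshKO in orange and an asterisk where the peak was called. The SgshKO points lie below WT at Mobp and Aspa and above it at Pllp and Ermn, the 4 called peaks. The Mbp point is the golli start site, and the myelin start site of Mbp is not in this plot.

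The DNA just before some of the start sites that changed is shown, for Mobp and Nfasc, which fell, and for Pllp and Ermn, which rose. Each run is the 250 bases before the start site, in the direction of transcription, from RefSeq (GRCm38.p6), and at least 150 of them lie in the called peak. Capitals mark matches, on either strand, to ACAAAG (the core of SOX sites), the E-box CAGCTG, the E-box CACGTG, the E-box CATGTG, or the MYRF-type motifs, written CTGGCAC in its common form and CTGGTAC in its variant. No other letters are marked.
Mobp, chr9:120149492-120149741, plus strand: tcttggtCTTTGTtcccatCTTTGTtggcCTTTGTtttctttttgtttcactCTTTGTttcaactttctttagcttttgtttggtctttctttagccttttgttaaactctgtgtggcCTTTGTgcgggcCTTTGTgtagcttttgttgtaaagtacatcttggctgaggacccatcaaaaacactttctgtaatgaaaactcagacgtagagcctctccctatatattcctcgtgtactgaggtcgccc
Nfasc, chr1:132707327-132707576, minus strand: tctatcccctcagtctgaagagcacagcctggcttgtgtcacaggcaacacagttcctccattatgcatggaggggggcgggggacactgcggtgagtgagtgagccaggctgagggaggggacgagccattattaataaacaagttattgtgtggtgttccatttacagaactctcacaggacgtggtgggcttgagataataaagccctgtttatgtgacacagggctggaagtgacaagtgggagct
Pllp, chr8:94696243-94696492, minus strand: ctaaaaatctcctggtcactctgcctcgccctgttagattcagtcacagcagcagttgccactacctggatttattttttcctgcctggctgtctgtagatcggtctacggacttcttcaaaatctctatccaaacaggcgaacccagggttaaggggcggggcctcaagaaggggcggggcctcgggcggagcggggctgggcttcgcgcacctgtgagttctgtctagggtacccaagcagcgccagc
Ermn, chr2:58052865-58053114, minus strand: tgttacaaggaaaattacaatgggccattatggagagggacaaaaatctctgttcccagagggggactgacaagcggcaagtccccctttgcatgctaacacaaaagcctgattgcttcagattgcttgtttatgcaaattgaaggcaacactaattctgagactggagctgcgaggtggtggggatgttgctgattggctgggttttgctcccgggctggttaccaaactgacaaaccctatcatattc

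The Mobp run holds 6 matches to ACAAAG, each read as its reverse complement CTTTGT. The Nfasc, Pllp and Ermn runs hold none of the 6 motifs. Windows were found for 26 of the 34 members (38 windows). ACAAAG occurred in 11 of the 38 (8 genes), and in 16.5% of all 32851 windows of this length. Of all 32851, only the Mobp window held 6 or more. CTGGCAC occurred in 4 of 38 and in 4.19% of all, CTGGTAC in 1 and 1.83%, CAGCTG in 2 and 13.0%, CACGTG in 2 and 6.02%, and CATGTG in 4 and 12.3%. These are matches of letters, with no evidence of binding.

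Other lists of the same lineage give the setting. Of 515 distal peaks of 30 further mature oligodendrocyte genes, 55 were lower (10.7%) and 17 higher, with a median log2 change of -0.10. Of their 82 start-site peaks 9 were lower and 4 higher. Lineage transcription factors (12 of 13 genes with a peak) had 19 of 309 distal peaks lower and 21 higher. Precursor genes (15 genes) had 3 of 95 distal peaks lower and 15 higher and 1 of 22 start-site peaks lower and 7 higher, with a median log2 change of 0.25 over all their peaks. The share of lower distal peaks was 10.7%, 6.15% and 3.16% in these 3 lists, beside 13.0% of all distal peaks. Of all distal peaks 6.69% were higher, and of all start-site peaks 12.7% were higher and 7.56% lower. The difference between lists was not tested.

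Most member peaks were found in Olig2+ nuclei alone. Of the distal member peaks in Olig2+ nuclei, 83.3% overlapped no peak of the NeuN+ or microglia tables, beside 62.9% of all distal peaks. For start-site peaks it was 64.7%, beside 14.9%. Of the distal peaks, those inside the member gene were lower in 132 of 530 cases (24.9%), those inside another gene in 19 of 128 (14.8%) and those between genes in 46 of 216 (21.3%). Of all distal peaks 13.0% were lower. Mbp and Mobp weigh on these shares, with 38 of 106 and 36 of 47 lower inside the gene. Between genes they had 8 of 14 and 16 of 29 lower. The difference between places was not tested.

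In NeuN+ nuclei, 47 of 230 member peaks were called, beside 29.8% of all peaks. Higher were 15, beside 10.2%, and lower were 32, beside 19.6%. Of 27 start-site peaks 10 were lower and 2 higher, where 44.9% and 1.74% (46.6% in all) of all start-site peaks were. Of 203 distal peaks 22 were lower and 13 higher, where 12.6% of all were in each direction (25.2% in all). The members' share of calls did not exceed that of the table. Start-site tags of the neuron list, 10 of 10 genes, were 1006 and 927 in WT, against 509 and 552 in SgshKO, with both SgshKO values below both WT values. The share of tags in peaks was 26.7% and 25.9% in WT and 21.5% and 21.2% in SgshKO NeuN+ libraries. The part of either in these calls was not tested. The direction also rested on the scaling: 26 were higher and 13 lower when scaled to tags in peaks, and 23 higher and 18 lower with median-of-ratios factors, which moved the median log2 change of all peaks from -0.23 to -0.03. Without SgshKO replicate 1 or without SgshKO replicate 2, limma called 0 of all peaks, with 33265 and 32556 at an unadjusted p under 0.05. DESeq2 called 3 member peaks, and 15 and 13 were called without WT replicate 1 and 2.

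The NeuN+ member peaks with the smallest adjusted p were at start sites of Nfasc and Mbp. The golli start site of Mbp at 6 bp had 74.8 and 66.6 tags in WT and 31.4 and 27.9 in SgshKO (log2 change -1.23 ± 0.17; limma adjusted p = 6.23e-05). The Nfasc start site at -39 bp had 88.9 and 105 in WT and 45.4 and 40.0 in SgshKO (-1.16 ± 0.15; limma adjusted p = 3.42e-05). Both groups of SgshKO values were below all WT values, and both calls were lost when either SgshKO library was left out (adjusted p up to 0.129). The Myrf start site at -76 bp had 54.4 and 43.5 tags in WT and 23.7 and 28.6 in SgshKO NeuN+ nuclei (limma adjusted p = 0.00322), and the Tmem88b peak at 1612 bp had 53.2 and 53.1 in WT and 30.7 and 29.8 in SgshKO (limma adjusted p = 0.00303). The Qdpr start site at -211 bp, with 369 and 351 in WT and 268 and 293 in SgshKO, was called lower (limma adjusted p = 0.00192), but its log2 change turned from -0.36 to 0.20 with quantile normalization. Mobp had 13 NeuN+ peaks, all distal, of which 1 was higher and none lower. An Opalin peak at -4761 bp (41081744 to 41082005), which overlaps the Olig2+ peak at -4631 bp, had 2.27 and 0.56 tags in WT and 10.5 and 14.0 in SgshKO, and was called higher (limma adjusted p = 0.000305, and 0.145 at most over the alternatives). The other higher peaks named by the rule, at Enpp6 (-57172 bp), St18 (-147 bp), Lpar1 (23417 bp) and Mbp (22446 bp), had under 9 tags in each WT library.

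In microglia 3 of 153 member peaks were called, all higher, beside 7.37% of all peaks (5.05% higher, 2.33% lower). Qdpr at -289 bp (chromosome 5, 45450368 to 45450668) had 466 and 422 tags in WT and 1135 and 1171 in SgshKO, a log2 change of 1.38 ± 0.23 (limma adjusted p = 0.000162), and was called in all 14 settings. The golli start site of Mbp at -51 bp had 36.3 and 33.9 tags in WT and 77.9 and 78.0 in SgshKO (1.13 ± 0.34; limma adjusted p = 0.0361). That call was lost without WT replicate 1 or 2. The intergenic peak at -118486 bp from Enpp6 had 0.86 and 2.54 tags in WT and 21.6 and 13.9 in SgshKO, and was not called without WT replicate 1 (limma adjusted p = 0.127). Counts in microglia varied with 1 library: 25 member peaks (6 higher, 19 lower) were called without SgshKO replicate 1, which had 67.4% of its tags in peaks against 48.7% to 55.8% in the other 3, and 22 (15 higher, 7 lower) without SgshKO replicate 2. Scaled to tags in peaks, 18 were called, 3 higher and 15 lower, and the median log2 change of all peaks moved from -0.08 to -0.28. Start-site tags of the microglia list, 7 of 8 genes, were 2205 and 1952 in WT, against 2601 and 1976 in SgshKO, where the groups overlapped. The part of the tag share in these calls was not tested.

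Whether a genotype difference itself differed between the nuclei sorts was tested at 109 member peaks shared by the Olig2+ and NeuN+ tables (21 start-site, 88 distal). The test called 20, beside 35.0% of all 29576 shared peaks. Of these, 14 had the Olig2+ change above and 6 below the NeuN+ change, beside 31.7% and 3.29% of all. Of the start-site peaks 12 of 21 lay above, beside 49.3% of all shared start-site peaks (51.0% in either direction, 1.73% below), which is near the members' share. This direction turned with the scaling: 2 lay above and 22 below when scaled to tags in peaks, 2 and 17 with median-of-ratios factors, and 2 and 15 with quantile normalization. Of the distal peaks 6 lay below and 2 above, beside 4.76% and 15.0% (19.8% in all). The call count was 12 without NeuN+ WT replicate 1, 11 without Olig2+ WT replicate 2 and 13 without Olig2+ SgshKO replicate 2.

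A contrast was seen at single shared sites of Mobp and Nfasc. Not every shared Mobp peak differed. At 29381 bp the log2 change was -0.94 in Olig2+ and -0.82 in NeuN+ nuclei (limma adjusted p = 0.846 for the difference). The Mobp peak at 25181 bp had 56.0 and 43.5 tags in WT and 21.5 and 15.9 in SgshKO Olig2+ nuclei. In NeuN+ nuclei it had 12.5 and 7.91 in WT and 11.2 and 10.2 in SgshKO, where the groups overlapped. The difference of the log2 changes was -1.46 ± 0.39 (limma adjusted p = 0.00335), and it was called with the same sign in all 16 settings. At the shared Nfasc start site it was 1.14 ± 0.20 (limma adjusted p = 3.17e-05), the fall being in NeuN+ nuclei. The Nfasc call also held in all 16 settings, with differences from 0.59 to 1.26. Over all shared start-site peaks the median difference was 0.62.

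**Figure D5:**
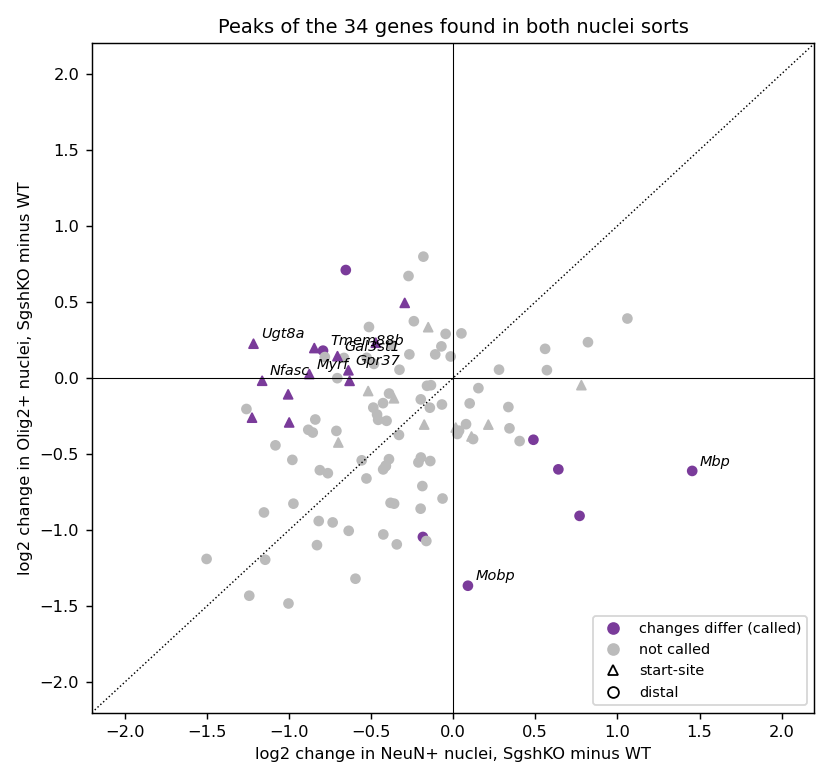
Log2 change (SgshKO minus WT) in Olig2+ nuclei against that in NeuN+ nuclei at the 109 member peaks shared by both tables. Triangles are start-site and circles distal peaks, purple where the changes differ by the test, and the dotted line marks equal changes. Labelled points are the 8 with the smallest p. The 12 called start-site peaks lie above the line, with NeuN+ changes below 0, and the labelled Mbp and Mobp peaks lie below it.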

How the data were processed

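ATAC-seq signal was analysed per peak in the 3 deposited tables. The authors' tables give each peak's position on mm10, its nearest gene and annotation class (HOMER format) and its tags in each library; the signal, per the file headers, is the number of tags scaled to 10000000 per library; 0 columns of per-library values were left unused. The authors' Peak Score, a score also deposited, was not tested. Bowtie2, HOMER and mm10 are named in the submitters' processing notes, without versions, and reads were single-end per the labels. Handling of duplicates and read shifting is not given in the sources used here. Dividing by the scaling recovered whole reads for 100% of values, to within 0.01 of a whole number.

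SgshKO was set against WT on log2(normalized tags + 1), by limma 3.58.1 under R 4.3.3 (eBayes with trend, two-sided), and p-values were adjusted over every peak of a table. The log2(value + 1) scale understates changes of low peaks. Differences between sorts used an interaction contrast over 29576 shared peaks, paired one to one where each covered 50% of the other. As alternatives, the pseudocount was 0.5 or 5, the weakest 25% of peaks were dropped, 3 other scalings were tried, recovered reads were tested by edgeR 4.0.16 and by DESeq2 1.42.0, start sites were defined within 500 bp or by the annotation class, a replicate block was added, and each library was left out in turn. The code was tested on simulated data. Leaving out a library leaves its group with 1, assumed to vary like the other group.

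Peaks were named by rule: the start-site peak nearest each member's start, up to 10 called Olig2+ peaks per direction (at most 2 per gene), up to 5 called per direction in the other tables, up to 5 per direction that differed between sorts, and up to 2 per other list. Called start-site peaks farther from the start, strong peaks that were not called, and those of Mobp at 24850 bp, Mbp at 2797 bp and Mal at 28574 bp were added after their values were seen. The members, lists and rules were chosen with earlier results of these data known. Sequences come from RefSeq promoter windows (GRCm38.p6). No genome sequence was used, so distal peaks have none. The values of the 1 microglia marker with a start-site peak in Olig2+ nuclei are not reported here.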

Additional observations from a re-analysis of the deposited data

Results flagged for a closer look

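Of the 20 member peaks whose genotype change differed between Olig2+ and NeuN+ nuclei by the interaction test (limma, adjusted p under 0.05), the 10 named by the rule are given here. Differences below are the Olig2+ log2 change minus the NeuN+ log2 change. The start-site peak of Ugt8a at 13 bp (1.44 ± 0.25), that of Nfasc at -10 bp (1.14), that of Gal3st1 at -106 bp (0.85), that of Myrf at -24 bp (0.90) and the Tmem88b peak at 1511 bp (0.97) had the NeuN+ change below the Olig2+ change. At the Ugt8a start site, Olig2+ nuclei had 226 and 196 tags in WT and 267 and 227 in SgshKO, and NeuN+ nuclei had 17.0 and 19.2 in WT and 6.28 and 8.25 in SgshKO. Differences of the other sign were found at Mbp, at 22517 bp (-2.07) and -18600 bp (-1.24), at Mobp, at 25181 bp (-1.46) and 34980 bp (-0.86), and at Enpp6, at 34584 bp (-1.68). At the Mbp peak at 22517 bp, Olig2+ nuclei had 25.4 and 23.5 tags in WT and 14.8 and 16.6 in SgshKO, and NeuN+ nuclei had 3.40 and 2.26 in WT, against 7.68 and 11.4 in SgshKO. The differences at Ugt8a, Nfasc, Mbp at 22517 bp and Mobp at 25181 bp were called in every setting that could measure them, and the other 6 lost their call in 3 or 4 settings each.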

How the results depend on the processing

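The count of member peaks called in Olig2+ nuclei was 238, and 62 with DESeq2 (14 start-site and 224 distal peaks became 5 and 57). Leaving out 1 library gave 100 to 226 in all, 5 to 17 at start sites and 95 to 210 at distal peaks, with the lowest counts without a WT library. Other settings kept these counts within 1.5 times. All 197 lower distal peaks stayed below 0 in every setting that measured them, but they were chosen in these same libraries. Start-site calls split 4 higher and 10 lower, but 9 and 7 with median-of-ratios factors, 12 and 7 with edgeR, 6 and 8 scaled to tags in peaks and 5 and 6 with quantile normalization. In NeuN+ nuclei 47 became 25 with quantile normalization, 3 with DESeq2 and 0 to 15 with 1 library left out (0 without either SgshKO library). In microglia 3 became 8 with a pseudocount of 5, 18 scaled to tags in peaks, 7 with median-of-ratios factors, 11 with quantile normalization, 10 with edgeR and 2 to 25 with 1 library left out. The difference between sorts went from 20 calls to 11 to 24 with 1 library left out. The cause of these changes was not tested. With the replicate block, 245, 50, 15 and 21 peaks were called in Olig2+ nuclei, NeuN+ nuclei, microglia and the difference between sorts. The labels do not say whether replicate numbers pair libraries, and the main fit used no pairing. Deviations of same-numbered libraries correlated at 0.00069, 0.0036 and 0.042 in Olig2+ nuclei, NeuN+ nuclei and microglia. These deviations hold counting noise, so a low correlation cannot exclude pairing. Signs turned at start-site peaks with changes near 0, none of them called in Olig2+ nuclei. Scaled to tags in peaks, the log2 change was 0.000526 at Anln, 0.0151 at Klk6, 0.00116 at Nfasc and 0.0148 at Ppp1r14a. With median-of-ratios factors it was 0.0488 at Anln, 0.0172 at Il33, 0.0619 at Klk6, 0.0492 at Nfasc and 0.0629 at Ppp1r14a. With edgeR it was 0.0492 at Anln, 0.00969 at Il33, 0.0518 at Klk6, 0.0482 at Nfasc and 0.0668 at Ppp1r14a. With DESeq2 it was 0.0518 at Anln, 0.0115 at Il33, 0.0512 at Klk6, 0.0494 at Nfasc and 0.0669 at Ppp1r14a. With quantile normalization it was 0.0282 at Il33, 0.0738 at Klk6 and -0.00596 at Myrf, and 0.201 at Qdpr in NeuN+ nuclei, where the other settings gave a fall. With 1 library left out, log2 changes ranged from -0.144 to 0.106 at Anln, -0.0694 to 0.463 at Car2, -0.177 to 0.0047 at Cldn11, -0.14 to 0.185 at Enpp6, -0.0169 to 0.117 at Gpr37, -0.193 to 0.0978 at Il33 and -0.233 to 0.225 at Klk6. They ranged from -0.266 to 0.0505 at Lpar1, -0.0138 to 0.0652 at Myrf, -0.085 to 0.0484 at Nfasc, -0.226 to 0.0644 at Opalin, -0.0928 to 0.0834 at Ppp1r14a and -0.184 to 0.217 at St18. Depth limits weak peaks: the median Olig2+ peak held 22 to 30 reads per library.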

Other observations

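Peaks of related genes outside the 34 members changed in both directions. The Gsn peak at 6832 bp, in an intron of the gelsolin gene, had 175 and 194 tags in WT and 84.9 and 90.4 in SgshKO Olig2+ nuclei (log2 change -1.06 ± 0.11; limma adjusted p = 6.80e-08). Ndrg1 encodes a protein of myelinating glia, and its peak at 17686 bp had 283 and 271 in WT, against 164 and 165 in SgshKO. The precursor gene Sox6, which holds back oligodendrocyte maturation, went the other way at -20163 bp, from 47.2 and 59.3 to 132 and 146 (log2 change 1.38 ± 0.14; limma adjusted p = 2.65e-08). Id4, another inhibitor of maturation, had 130 and 133 in WT and 183 and 173 in SgshKO at -33505 bp. Upstream of Olig2, which encodes the sorted protein, a weak peak at -3527 bp had 3.63 and 1.53 in WT and 12.9 and 15.3 in SgshKO, and a Zfp536 peak fell from 20.8 and 19.9 to 6.15 and 6.65. No groups overlapped at these 6 peaks, which are those with the smallest p in their lists.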
